A study of Mus musculus with 4 samples.

Results

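The genes described here are 38 genes of sterol and fatty acid synthesis, chosen by symbol for their place in the pathway: 18 enzyme steps from acetyl-CoA to cholesterol, 8 regulators, 9 enzymes of fatty acid synthesis and 3 genes of sterol transport. Of these, 37 had a row among the 21025 gene rows measured, and 35 passed the filter on low values and were tested. Hmgcs1, the enzyme that makes HMG-CoA, was not analysed here.

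Cells make cholesterol from acetyl-CoA through mevalonate, isoprenoids, squalene and lanosterol, and make fatty acids by carboxylation, chain building, elongation and desaturation. The transcription factors of the SREBP family switch on both pathways. Srebf2 encodes the member best known for sterol enzymes and Srebf1 the member best known for fatty acid enzymes. Scap escorts the SREBPs out of the endoplasmic reticulum, the Insig proteins hold them back when sterol is plentiful, and the liver X receptors (LXR) respond to oxidised sterols. In lymphocytes, growth and activation draw on these pathways for new membrane.

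RNA-seq was done on polyA RNA of natural killer (NK) cells sorted by flow cytometry from the livers of C57BL/6 mice. The study compared 2 subsets, both gated on NK1.1 and NKp46 and without TCRb, the beta chain of the T cell receptor: TRAIL+ cells, which carry the death ligand TRAIL and lack CD49b (2 libraries), and CD49b+ cells, which carry the integrin CD49b and lack TRAIL (2 libraries). The labels name no treatment or genetic change, and give neither the age of the mice nor whether the libraries of a group came from separate mice, so the p-values measure a spread between libraries that may be technical. The series title refers to Nfil3 in NK cell development.

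Each library held 3786497 to 4232967 reads, as worked out from the deposited values, so that a level of 1 RPKM (reads scaled to gene length and to library size) rested on 7.57 to 8.47 reads where a gene has 2000 bases. The gate genes followed the labels: Tnfsf10, which encodes TRAIL, was at 199 ± 13.2 RPKM in TRAIL+ and 7.10 ± 0.226 RPKM in CD49b+ cells (SD, n = 2 each), and Itga2, which encodes CD49b, at 3.41 ± 2.62 and 44.5 ± 10.7 RPKM. The 7 markers shared by NK cells (Nkg7 and Ncr1 among them) summed to 9066 and 12200 RPKM in TRAIL+ and to 10080 and 11900 RPKM in CD49b+ replicates 1 and 2, the order used for all values below. Markers of other liver cells summed higher in replicate 1 than in replicate 2 of both subsets: 14 hepatocyte genes summed to 26.7 and 5.51 RPKM in TRAIL+ and to 37.4 and 2.31 RPKM in CD49b+ cells, and 13 genes of Kupffer cells and monocytes to 110.7 and 29.3 RPKM and to 144 and 17.2 RPKM. None of the 6 and 8 tested genes of these lists was called by limma, with 1 in each at an unadjusted p under 0.05. Of the Kupffer cell sum, Lyz2 alone made up 81.9 and 9.21 RPKM and 122.5 and 8.87 RPKM. By subset, 6 of the 8 tested genes of that list had a positive sign (median log2 fold change 0.74). C1qa was at 5.21 and 4.38 RPKM in TRAIL+ and at 1.31 and 0 RPKM in CD49b+ cells (adjusted p 0.0549). Clec4f, which defines Kupffer cells, was at 0.918 and 1.32 RPKM and at 0.196 and 0 RPKM. Other genes of the list had CD49b+ on top. Cd68 was at 5.09 and 3.13 RPKM in TRAIL+ and at 7.69 and 5.77 RPKM in CD49b+ cells. Cd163, which was not tested, was at 0.109 and 0 RPKM against 0.839 and 1.13 RPKM. Albumin (Alb) was at 12.7 and 1.93 RPKM and at 14.8 and 0.865 RPKM. Lists for neutrophils, dendritic cells, B cells, endothelial and stellate cells, and red cells and platelets also summed higher in replicate 1 of both subsets, and Xcr1 was the single gene of them called (higher in TRAIL+ cells, 2.98 and 3.20 against 0.106 and 0.0571 RPKM). T cell genes moved with the subset and passed the test: the 8 listed summed to 67.4 and 125.4 RPKM in TRAIL+ and 16.2 and 14.6 RPKM in CD49b+ cells, and 4 of the 4 tested (Cd3e, Cd3d, Cd4, Cd8a) were called higher (Cd3d not without either CD49b+ library, at 0.0508 and 0.0566, nor with no filter, at 0.0557; Cd4 not without CD49b+ replicate 2, at 0.0648, nor with pseudocount 0.1, at 0.0636), while Cd8b1, Cd5, Themis and Cd6 stayed at or below 1.16 RPKM in every library. Their part in the results below was not tested. In these bulk samples fewer cells of a type and less RNA per cell cannot be told apart.

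Log2 fold changes are TRAIL+ minus CD49b+ on the log2(RPKM + 1) scale with their SE, tests are limma's with Benjamini-Hochberg adjustment over all 10047 genes tested, and a gene is called at an adjusted p under 0.05. Of the 35 members, 3 were called higher in TRAIL+ cells (Lss, Srebf2 and Fads1; 8.57%, against 4.76% of all genes tested) and 2 were called lower (Npc1 and Scd2; 5.71%, against 3.86%). Called in either direction were 14.3% of the members and 8.62% of all genes, and 30 members did not pass. The 2 libraries of one subset both lay above the 2 of the other, with no overlap, in 13 members with TRAIL+ on top (24.9% of all genes did so) and in 7 with CD49b+ on top (21.8% of all genes), which together is 57.1% of the members and 46.8% of all genes. The median log2 fold change was 0.12 over the members and 0.01 over all genes tested. By role it was 0.57 over 17 sterol enzymes, 0.05 over 7 regulators and -0.29 over 8 fatty acid enzymes.

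**Figure D1:**
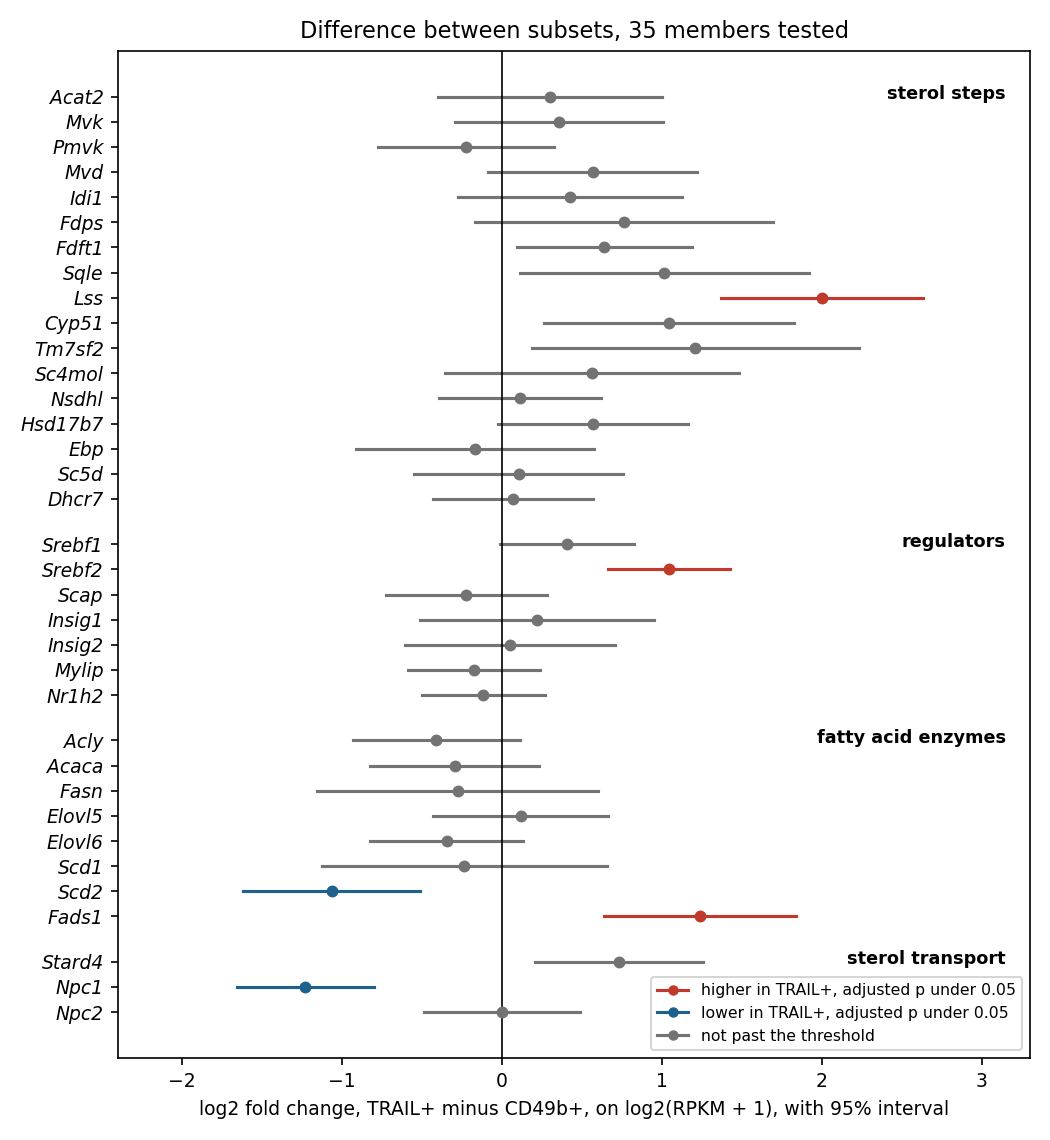
Log2 fold change (x axis, TRAIL+ minus CD49b+ on log2(RPKM + 1)) of the 35 members tested, one row a gene, grouped by role; points are the fitted values and lines their 95% intervals. Lss, Srebf2 and Fads1 in red passed the threshold as higher and Scd2 and Npc1 in blue as lower; most sterol steps lie right of 0 and most fatty acid enzymes left of it.

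Among the sterol enzymes, 1 of 17 rose in TRAIL+ cells (5.88%, against 4.76% of all genes tested), none fell, and 16 did not pass limma's test. An unadjusted p under 0.05 was reached by 5 (Fdft1, Sqle, Lss, Cyp51 and Tm7sf2), each with a positive sign, a p that 19.97% of all genes tested reached. Lss, lanosterol synthase, which closes squalene epoxide into the first sterol ring system, was at 17.6 and 18.3 RPKM in the TRAIL+ libraries and at 2.87 and 4.80 RPKM in the CD49b+ libraries. The groups were far apart, and the TRAIL+ libraries differed from each other by less than the CD49b+ libraries did. The mean was 4.68-fold higher in TRAIL+ cells (18.0 ± 0.519 against 3.84 ± 1.36 RPKM, SD, n = 2 each), with a log2 fold change of 2.00 ± 0.25 and an adjusted p of 0.00875. Lss stayed called with each library left out in turn, at log2 fold changes of 1.71 to 2.29. By level, Lss stood 14th among the 37 members in TRAIL+ cells and 27th in CD49b+ cells.

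The fitted difference was positive for 15 of the 17 sterol enzymes, against 50.5% of all genes tested. In 9 of the 17 (52.9%) the groups did not overlap, with TRAIL+ on top in each, against 24.9% of all genes. The first steps showed overlap or small differences. Acat2, the thiolase that joins acetyl-CoA units, was at 5.65 and 9.37 RPKM in TRAIL+ and at 5.21 and 6.34 RPKM in CD49b+ cells. Mvk, mevalonate kinase, was at 4.56 and 6.64 RPKM and at 3.54 and 4.72 RPKM. In both genes the ranges overlapped. Pmvk, the next kinase, had the opposite sign, at 4.71 and 6.12 RPKM in TRAIL+ and at 6.88 and 6.06 RPKM in CD49b+ cells (log2 fold change -0.23 ± 0.22, adjusted p 0.703).

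From the decarboxylase to Sqle the groups came apart, although none of these genes passed the test. Mvd, which makes isopentenyl diphosphate, was at 9.82 and 12.3 RPKM in TRAIL+ and at 5.67 and 8.81 RPKM in CD49b+ cells. Idi1, which isomerises it, was low throughout, at 1.54 and 1.84 RPKM and at 0.658 and 1.42 RPKM, resting on 8 to 20 reads a library. Fdps, farnesyl diphosphate synthase, was at 3.19 and 7.28 RPKM in TRAIL+ and at 2.11 and 2.89 RPKM in CD49b+ cells. In each of these 3 genes the lower TRAIL+ library was still above the higher CD49b+ library, by the smallest margin in Idi1 and Fdps. Fdft1, squalene synthase, the first step committed to sterols, was at 10.3 and 14.0 RPKM against 7.41 and 7.26 RPKM (log2 fold change 0.64 ± 0.22, adjusted p 0.176). Sqle, squalene epoxidase, a rate-limiting oxygen-requiring step, was at 2.94 and 5.84 RPKM against 1.11 and 2.12 RPKM (1.02 ± 0.36, adjusted p 0.195).

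After lanosterol, 3 more enzymes had groups that did not overlap, without passing the test. Cyp51, which removes the first methyl group of lanosterol, was at 7.43 and 11.4 RPKM in TRAIL+ and at 3.03 and 5.13 RPKM in CD49b+ cells (log2 fold change 1.04 ± 0.31, adjusted p 0.129). Tm7sf2, a sterol reductase acting next, was at 3.13 and 3.90 RPKM against 0.317 and 1.88 RPKM; the lowest value stood on 2 reads, and the fold change was 1.21 ± 0.41 with an adjusted p of 0.175. Hsd17b7, a ketosteroid reductase of the demethylation complex, was at 2.73 and 3.57 RPKM against 1.60 and 2.00 RPKM. Each was higher in both TRAIL+ libraries. Sc4mol (Msmo1 in RefSeq), the methyl sterol oxidase of the same complex, did overlap: its TRAIL+ libraries were at 13.6 and 26.6 RPKM and its CD49b+ libraries at 10.1 and 15.6 RPKM.

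The remaining enzymes showed no called difference. Nsdhl, a sterol dehydrogenase listed before Hsd17b7 in pathway order, was at 9.27 and 11.9 RPKM in TRAIL+ and at 9.45 and 9.82 RPKM in CD49b+ cells. Sc5d, a sterol desaturase, was at 14.5 and 21.3 RPKM against 13.9 and 19.1 RPKM. Dhcr7, the reductase that ends one branch of the pathway, was at 21.5 and 26.6 RPKM against 20.4 and 25.2 RPKM. All 3 overlapped, and their log2 fold changes lay between 0.07 and 0.11. The interval was widest for Sc5d, from -0.55 to 0.76. Ebp, the sterol isomerase, was the most abundant sterol enzyme in both subsets and the other with a negative sign, at 40.2 and 73.4 RPKM in TRAIL+ and at 58.9 and 63.9 RPKM in CD49b+ cells, so that the TRAIL+ libraries lay on either side of both CD49b+ libraries. The interval of its log2 fold change ran from -0.92 to 0.57.

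Summed over the 17 enzymes, the level was 172.6 and 260.2 RPKM in TRAIL+ and 153.1 and 187.0 RPKM in CD49b+ cells, which overlap. Without Ebp, the most abundant of them and one with a negative sign, it was 132.4 and 186.9 RPKM against 94.3 and 123.1 RPKM. These do not overlap, a separation that depends on leaving out that gene. The replicate mattered as well as the subset: replicate 2 was above replicate 1 in 17 of 17 sterol enzymes in TRAIL+ cells and in 15 of 17 in CD49b+ cells, against 49.3% and 53.3% of all genes tested. Gene length moved with the replicate too, since replicate 2 was the higher in 81.3% and 72.1% of short genes (up to 1850 bases) and in 19.6% and 33.4% of long genes (from 4448 bases). With a correction for gene length, added after seeing the data, 15 of the 17 signs were positive. The median log2 fold change was then 0.51, and 1 enzyme was called. A fit with a block for the replicate number called 5 of the 17 higher, though the labels tie the replicates only by that number. The part of either in the sterol values was not tested beyond these fits. Positive signs numbered 16 of 17 without TRAIL+ replicate 1, 11 without TRAIL+ replicate 2, 13 without CD49b+ replicate 1 and 15 without CD49b+ replicate 2. The calls moved with the library as well: 6 sterol enzymes were called higher without TRAIL+ replicate 1, namely Lss with Fdps (adjusted p 0.0262), Sqle (0.0291), Cyp51 (0.0321), Fdft1 (0.0454) and Sc4mol (0.0470), and Tm7sf2 joined Lss without CD49b+ replicate 2 (0.0325).

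**Figure D2:**
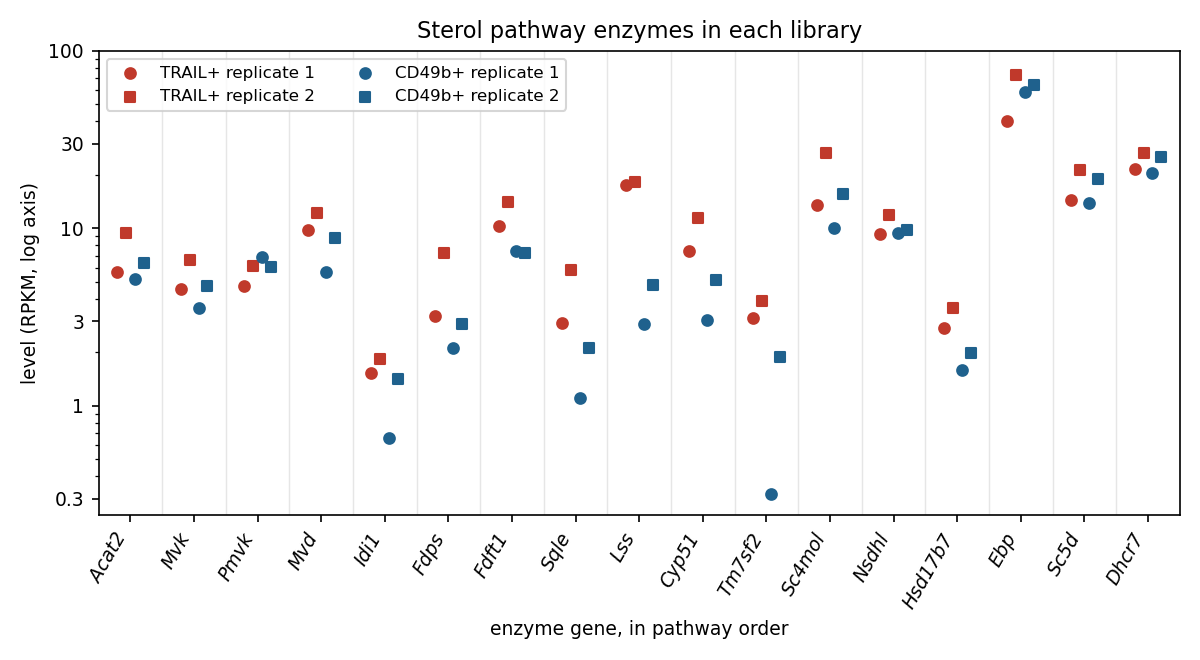
Level in RPKM (log axis) of the 17 sterol enzymes in pathway order, one point a library; red is TRAIL+, blue CD49b+, circles replicate 1 and squares replicate 2. Lss stands out, with both TRAIL+ points near 18 RPKM and both CD49b+ points below 5 RPKM; squares lie above circles of the same colour in nearly every gene.

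The promoters of these enzymes are shown because many share a short element that the choice of members did not use. RefSeq windows (GRCm38.p6, from 250 bases before to 50 after a gene's start) were found for 29 members, 14 of them sterol enzymes. The CCAAT box, the site of the factor NF-Y, which works with the SREBPs at sterol genes, was searched as CCAAT on both strands. A gene counted as holding a motif if any of its windows did. The box was in 13 of the 14 sterol enzymes (92.9%, Acat2 the exception), 5 of 8 regulators and 3 of 6 fatty acid enzymes. It was in 41.1% of all genes with a window and 43.2% of the genes tested. Counted by window, the share was 76.5% of 17 for sterol enzymes, 42.9% of 14 for regulators and 50% of 6 for fatty acid enzymes. It was 37.4% of all windows and 37.8% of those of the genes tested. The windows below run 5′ to 3′ on the gene's strand, in lower case, with the CCAAT box or its reverse complement ATTGG in capitals. Those of Lss (chr10:76531455-76531604, plus strand), Mvk (chr5:114444119-114444268, plus strand), Mvd (chr8:122443423-122443572, minus strand) and Ebp (chrX:8193513-8193662, minus strand) cover the 150 bases before the start, and that of Srebf2 (chr15:82147019-82147180, plus strand) covers bases 250 to 89 before it. They were chosen to set the called Lss and Srebf2 beside 3 enzymes that were not called.
Lss: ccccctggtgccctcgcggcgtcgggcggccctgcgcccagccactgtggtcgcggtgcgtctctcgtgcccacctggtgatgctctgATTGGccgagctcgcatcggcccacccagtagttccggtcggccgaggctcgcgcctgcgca
Mvk: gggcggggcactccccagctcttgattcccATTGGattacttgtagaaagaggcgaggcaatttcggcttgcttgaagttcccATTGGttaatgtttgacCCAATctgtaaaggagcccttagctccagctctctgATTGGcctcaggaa
Mvd: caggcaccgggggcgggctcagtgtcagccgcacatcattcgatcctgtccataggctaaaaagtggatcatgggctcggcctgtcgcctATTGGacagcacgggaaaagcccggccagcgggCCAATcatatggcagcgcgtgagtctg
Ebp: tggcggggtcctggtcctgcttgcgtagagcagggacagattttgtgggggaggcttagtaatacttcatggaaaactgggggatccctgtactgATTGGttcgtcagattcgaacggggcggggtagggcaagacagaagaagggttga
Srebf2: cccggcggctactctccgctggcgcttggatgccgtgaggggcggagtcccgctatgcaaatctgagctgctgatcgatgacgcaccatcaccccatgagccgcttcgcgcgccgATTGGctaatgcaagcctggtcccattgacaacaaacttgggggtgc
Lss, the gene with the largest difference, showed 1 box in these 150 bases, as did Ebp, which was not called and had the opposite sign, while Mvk held 4 and Mvd held 2 without passing the test. The GC box GGGCGG was in 13 of 14 sterol enzymes (92.9%, against 38.2% of all genes with a window and 70.1% of the genes tested), and the E-box CACGTG in 3 of 14 (Dhcr7, Hsd17b7 and Sc5d; 21.4%, against 8.09% and 12.2%). The letters TCACNCCAC, one form of the sterol regulatory element, were in 0 of the 29 members with a window and in 1.44% of all genes. The LXR element DR4, searched only as an exact repeat, was in 0 of 29, in 0.0148% of all genes and in 0% of the genes tested. A form this rare cannot tell the members from other genes. No match overlapped a match of another motif. A match is a description of letters and not of binding.

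Of the regulators, 1 of 7 tested rose in TRAIL+ cells (14.3%, against 4.76% of all genes) and none fell by limma. Srebf2 alone had an unadjusted p under 0.05. Srebf2 was at 70.4 and 66.6 RPKM in the TRAIL+ libraries and at 33.8 and 31.6 RPKM in the CD49b+ libraries. Both TRAIL+ values were far above both CD49b+ values, and replicates differed little. The mean was 2.10-fold higher in TRAIL+ cells (68.5 ± 2.68 against 32.7 ± 1.51 RPKM, SD, n = 2 each), with a log2 fold change of 1.05 ± 0.15 and an adjusted p of 0.0141. Leaving out CD49b+ replicate 1 or CD49b+ replicate 2 ended the call (adjusted p 0.158 and 0.210), at log2 fold changes of 1.09 and 1.00. Srebf1 was at 48.0 and 40.6 RPKM against 33.9 and 32.2 RPKM. Its groups did not overlap, but it did not pass the test (0.41 ± 0.17, adjusted p 0.265). The ratio of Srebf1 to Srebf2 was 0.681 and 0.609 in TRAIL+ and 1.00 and 1.02 in CD49b+ libraries, so the 2 transcripts were at one level in CD49b+ cells and Srebf2 was ahead in TRAIL+ cells.

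The genes that control SREBP processing showed no called difference. Scap was at 25.2 and 19.0 RPKM in TRAIL+ and at 27.4 and 24.2 RPKM in CD49b+ cells. Insig1, itself a well known SREBP target, was at 9.07 and 16.1 RPKM against 9.71 and 10.9 RPKM, and Insig2 was at 10.5 and 16.6 RPKM against 11.6 and 14.0 RPKM. In all 3 the ranges overlapped, and the intervals of the log2 fold change ran from -0.73 to 0.28 for Scap, from -0.52 to 0.95 for Insig1 and from -0.61 to 0.71 for Insig2. The ratio of Insig1 to Insig2 lay between 0.783 and 0.972 in the 4 libraries.

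Of the sterol sensors, Nr1h2 (LXR beta) was abundant, at 71.7 and 69.7 RPKM in TRAIL+ and at 73.4 and 80.4 RPKM in CD49b+ cells. Nr1h3 (LXR alpha) was under the filter, at 0.625 and 0.269 RPKM against 0.722 and 0.518 RPKM, or 2 to 6 reads a library. The ratio of Nr1h3 to Nr1h2 was at most 0.00983, so nearly all LXR transcript in both subsets was Nr1h2. Mylip, an LXR target that encodes a ubiquitin ligase, was at 68.3 and 75.9 RPKM against 76.0 and 87.2 RPKM. The groups of Nr1h2 and Mylip did not overlap, with CD49b+ on top, but the differences were small (log2 fold changes -0.12 ± 0.15 and -0.17 ± 0.17) and did not pass the test.

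Fatty acid enzymes leaned the other way, with a negative sign in 6 of 8 tested, against 4970 of all 10047 genes tested. Only 1 fell and 1 rose past the threshold (12.5% each, against 3.86% and 4.76% of all genes). Scd2, a stearoyl-CoA desaturase that makes monounsaturated fatty acids, was at 24.4 and 32.5 RPKM in TRAIL+ and at 52.7 and 68.4 RPKM in CD49b+ cells. The groups did not overlap. The mean was 2.13-fold lower in TRAIL+ cells (28.4 ± 5.78 against 60.5 ± 11.1 RPKM, SD, n = 2 each), with a log2 fold change of -1.07 ± 0.22 and an adjusted p of 0.0457, close to the threshold. It was lost without CD49b+ replicate 1 (0.120), without CD49b+ replicate 2 (0.347) and under 5 other settings at 0.0508 to 0.0789. Its close copy Scd1 was low and overlapped, at 1.37 and 1.04 RPKM against 2.54 and 0.893 RPKM. Scd2 was 17.8 to 76.6 times as abundant as Scd1 within a library. How reads shared by these copies were counted is not given, so the low Scd1 values are uncertain.

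Fads1, a desaturase of polyunsaturated fatty acids, went with the sterol enzymes in sign. It was at 3.90 and 5.41 RPKM in TRAIL+ and at 1.36 and 1.39 RPKM in CD49b+ cells. Its CD49b+ libraries were nearly equal and both TRAIL+ libraries were well above them, although the CD49b+ values rested on 20 and 19 reads. The mean was 3.38-fold higher in TRAIL+ cells (4.65 ± 1.07 against 1.38 ± 0.0216 RPKM, SD, n = 2 each), with a log2 fold change of 1.24 ± 0.24 and an adjusted p of 0.0364. Leaving out TRAIL+ replicate 2 (0.0541), CD49b+ replicate 1 (0.201) or CD49b+ replicate 2 (0.170) ended the call, as did no filter (0.0677) and quantile scaling (0.0525). Fads2, the desaturase that acts before it in the same pathway, was at 0.311 RPKM in CD49b+ replicate 1 (4 reads, or as few as 1, depending on the gene length) and at 0 in the other 3 libraries, where 3 reads would be 0.242 to 0.261 RPKM.

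The chain-building enzymes did not pass the test. Acly, which supplies acetyl-CoA from citrate and feeds both pathways, was the second most abundant member in both subsets, at 91.1 and 69.2 RPKM in TRAIL+ and at 116.9 and 95.9 RPKM in CD49b+ cells (log2 fold change -0.41 ± 0.21, adjusted p 0.380). Acaca, the carboxylase that makes malonyl-CoA, was at 2.62 and 2.76 RPKM against 3.33 and 3.75 RPKM. Elovl6, an elongase of saturated chains, was at 6.72 and 6.70 RPKM against 8.25 and 9.40 RPKM. In these 3 the groups did not overlap, with CD49b+ on top each time. Fasn, fatty acid synthase, varied more within a subset than between them, at 45.0 and 21.9 RPKM in TRAIL+ and at 42.6 and 34.5 RPKM in CD49b+ cells. It was higher in replicate 1 of both subsets, as the summed hepatocyte and Kupffer cell markers were, and their part in it was not tested. Without TRAIL+ replicate 1 it was called lower in TRAIL+ cells (log2 fold change -0.78, adjusted p 0.0401), and without TRAIL+ replicate 2 its sign turned (0.23). Elovl5, an elongase of polyunsaturated chains, was at 58.4 and 75.0 RPKM against 52.9 and 70.1 RPKM and overlapped.

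Summed over the 9 fatty acid genes, the level was 233.5 and 214.5 RPKM in TRAIL+ and 280.8 and 284.3 RPKM in CD49b+ cells, with no overlap. Acly and Elovl5 made up much of that sum, and without them it was 84.0 and 70.3 RPKM against 111.1 and 118.3 RPKM. Replicate 2 was the higher in 4 of the 9 in TRAIL+ and in 5 of the 9 in CD49b+ cells. The count of negative signs was 6 of 8 with each library left out, though not always of one set of genes: Fasn turned positive and Elovl5 negative without TRAIL+ replicate 2, and Scd1 positive and Elovl5 negative without CD49b+ replicate 1.

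Of the 3 genes of sterol transport, 1 fell in TRAIL+ cells (33.3%, against 3.86% of all genes) and 2 did not pass the test. Npc1, the membrane protein that passes cholesterol out of late endosomes and lysosomes, was at 18.0 and 15.0 RPKM in the TRAIL+ libraries and at 39.2 and 40.7 RPKM in the CD49b+ libraries. The groups were far apart with small spread in each. The mean was 2.42-fold lower in TRAIL+ cells (16.5 ± 2.11 against 40.0 ± 1.05 RPKM, SD, n = 2 each), with a log2 fold change of -1.23 ± 0.17 and an adjusted p of 0.0120. The call was lost without CD49b+ replicate 1 (0.114) and without CD49b+ replicate 2 (0.132), at log2 fold changes of -1.26 and -1.20. Its soluble partner Npc2, which hands cholesterol to Npc1, was the most abundant member in both subsets and overlapped, at 96.4 and 125.7 RPKM in TRAIL+ and at 103.9 and 117.0 RPKM in CD49b+ cells. The ratio of Npc1 to Npc2 was accordingly 0.187 and 0.120 in TRAIL+ and 0.378 and 0.348 in CD49b+ libraries.

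Stard4, a soluble sterol carrier between membranes and a known SREBP target, had the opposite sign to Npc1. It was at 19.0 and 14.1 RPKM in TRAIL+ and at 9.24 and 9.69 RPKM in CD49b+ cells. The groups did not overlap, and the difference did not pass the test (0.73 ± 0.21, adjusted p 0.114). It did pass in 2 settings that kept all 4 libraries, a block for the replicate number (0.0257) and a correction for gene length (0.0276). The labels tie the replicates only by that number. Without TRAIL+ replicate 2 the log2 fold change was 0.93.

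**Figure D3:**
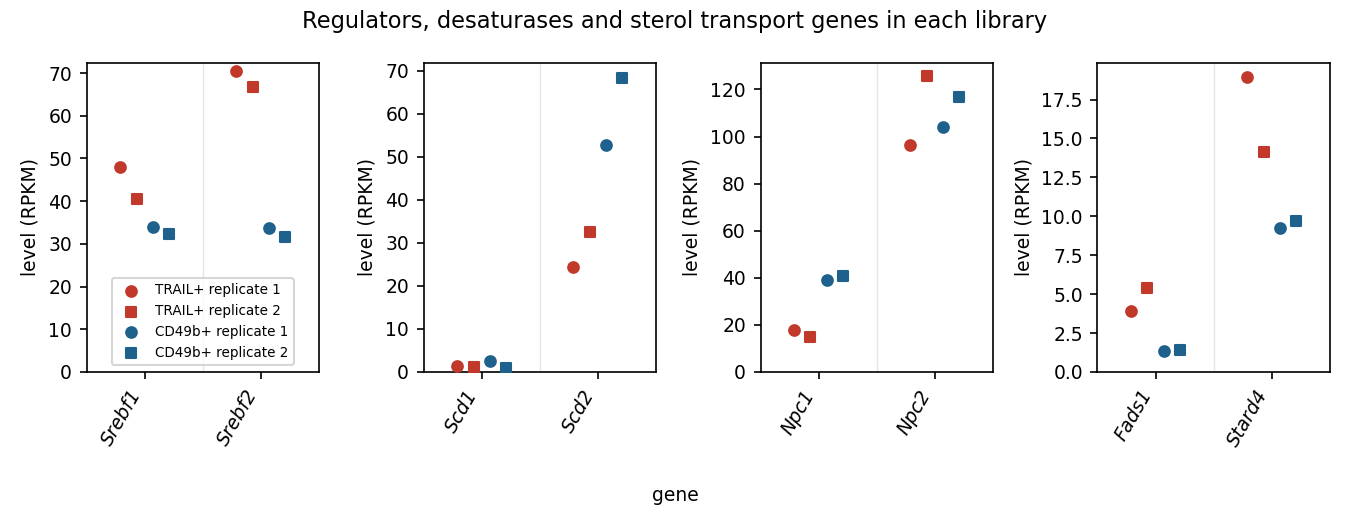
Level in RPKM of pairs of members, one point a library; red is TRAIL+, blue CD49b+, circles replicate 1 and squares replicate 2. Srebf1 and Srebf2 were level in CD49b+ cells and apart in TRAIL+ cells, Scd1 was near 0 beside Scd2, Npc1 but not Npc2 separated the subsets, and Fads1 and Stard4 were higher in both TRAIL+ libraries.

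**Figure D4:**
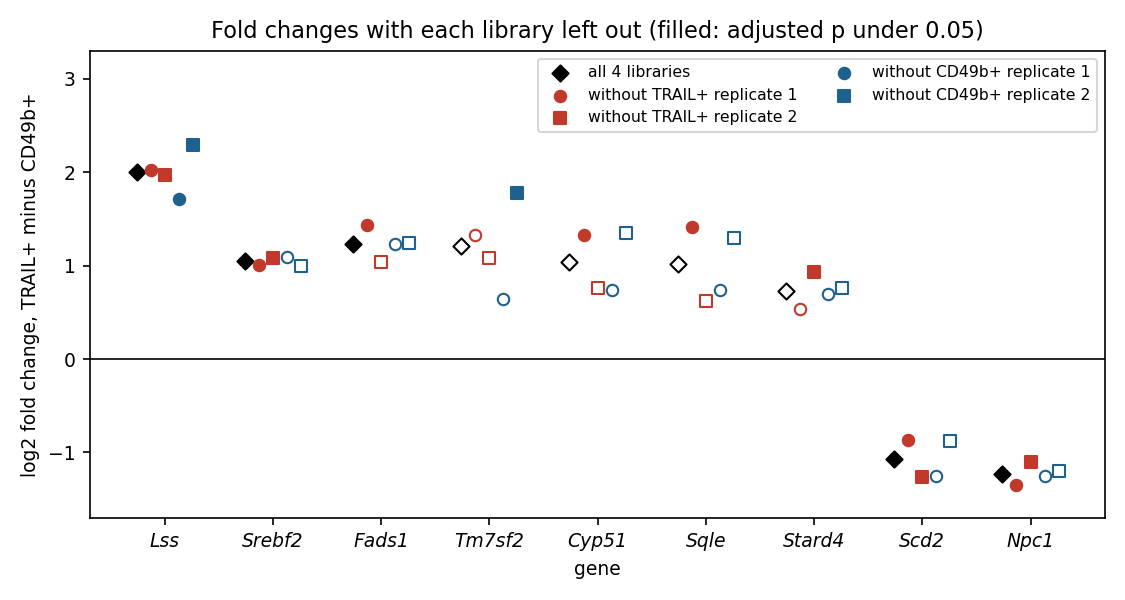
Log2 fold change (y axis, TRAIL+ minus CD49b+) of 9 members with all 4 libraries (black diamonds) and with each library left out (coloured points); filled points passed an adjusted p of 0.05 and open points did not. Lss was filled in every setting; Srebf2, Fads1, Scd2 and Npc1 were open without either CD49b+ library, and the sign turned in none of the 9.

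The members' levels kept much the same order in both subsets. Npc2, Acly, Mylip and Nr1h2 were the 4 most abundant in that order in TRAIL+ and in CD49b+ cells, and Idi1, Scd1, Nr1h3 and Fads2 were among the lowest. Mylip and Nr1h2, next to each other in that order, differed by less than their spread in TRAIL+ cells (72.1 ± 5.33 and 70.7 ± 1.39 RPKM, SD, n = 2 each). Of the called genes, Srebf2 was 5th in TRAIL+ and 11th in CD49b+ cells, Npc1 17th and 8th, Scd2 10th and 7th, Fads1 29th and 33rd, and Lss 14th and 27th; Elovl6 (25th and 20th) and Acaca (33rd and 28th), which were not called, moved farther than Scd2 and Fads1.

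Among 56 other genes of the same pathways, 40 were tested (median log2 fold change 0.02). In TRAIL+ cells 2 rose (5%, against 4.76% of all genes tested) and 4 fell (10%, against 3.86%). Soat1, which esterifies cholesterol for storage, was at 11.8 and 15.8 RPKM in TRAIL+ and at 4.87 and 6.46 RPKM in CD49b+ cells, 2.44-fold higher by the means (log2 fold change 1.15 ± 0.24, adjusted p 0.0457). Its call was lost without CD49b+ replicate 1 (0.351), CD49b+ replicate 2 (0.141) or TRAIL+ replicate 2 (0.0684), and in 4 settings that kept all libraries (0.0579 to 0.0955).

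The 4 genes that fell belong to fatty acid and glycerolipid metabolism. Lpin1, a phosphatidate phosphatase, was at 9.06 and 5.42 RPKM in TRAIL+ and at 57.8 and 52.5 RPKM in CD49b+ cells (7.62-fold lower, log2 fold change -2.80 ± 0.26, adjusted p 0.00310). Acss2, which makes acetyl-CoA from acetate, was at 17.2 and 15.1 RPKM against 50.6 and 50.2 RPKM (3.12-fold lower, -1.59 ± 0.16, adjusted p 0.00451). Elovl7, an elongase, had 1 read and 0 reads in the TRAIL+ libraries and 291 and 245 reads, or 12.6 and 11.4 RPKM, in the CD49b+ libraries (adjusted p 0.000888). These 3 kept their calls with each library left out. Mid1ip1, which promotes the activity of the carboxylase Acaca, was at 13.5 and 15.8 RPKM against 36.4 and 42.7 RPKM (2.70-fold lower, adjusted p 0.00986), and lost the call without CD49b+ replicate 1 (0.0572) and without CD49b+ replicate 2 (0.115).

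Of 11 LXR target genes, 10 were tested (median log2 fold change 0.06). In TRAIL+ cells 2 rose (20%, against 4.76% of all genes) and 1 fell (10%, against 3.86%). The gene that fell is Scd2, above. Pltp, a phospholipid transfer protein, was at 14.7 and 12.9 RPKM in TRAIL+ and at 2.72 and 1.26 RPKM in CD49b+ cells (6.94-fold higher, adjusted p 0.00860), and stayed called with each library left out. Smpdl3a, a phosphodiesterase, was at 118 and 173.8 RPKM against 61.5 and 72.1 RPKM (2.19-fold higher, adjusted p 0.0499), and lost the call without CD49b+ replicate 1 (0.354), without CD49b+ replicate 2 (0.185) and under 7 settings that kept all libraries. Abca1, the sterol exporter, was at 5.77 and 2.64 RPKM against 11.7 and 8.51 RPKM and did not pass (adjusted p 0.137). Proliferation genes, measured because dividing cells make sterols and fatty acids, showed no call by limma in 14 tested of 16, and none had an unadjusted p under 0.05. Their levels summed to 360.7 and 286.5 RPKM in TRAIL+ and to 361.6 and 329.5 RPKM in CD49b+ cells.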

How the data were processed

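PolyA RNA of sorted liver NK cells was sequenced in 4 libraries, 2 TRAIL+ and 2 CD49b+, grouped by their titles. The authors deposited RPKM for each gene row, per the file headers. Per the submitters' processing notes, TopHat 1.4.1 aligned the reads to mm9. How reads were counted, filtered and assigned to a strand is not given in the sources used here; reads of overlapping or antisense genes may therefore be mixed. Rows were named through RefSeq genes of GRCm38.p6 (20661 by accession, 191 by symbol, 65 by synonym, 108 by the name given); since that build is not mm9, coordinates are printed only for RefSeq promoter windows of GRCm38.p6. Protein sequences were not used here.

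The 10047 genes that reached RPKM 1 in 2 or more libraries were fitted as log2(RPKM + 1), which understates changes of low genes, with limma 3.58.1 in R 4.3.3 (lmFit, eBayes with a trended prior; 2 residual degrees of freedom, prior 3.51) and Benjamini-Hochberg adjustment. Plain folds are ratios of mean RPKM. No permutation test was used, since 2 libraries against 2 cannot give an exact p under 0.333. The fit was tested on simulated data.

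RPKM steps gave whole reads in 100% of 13681 rows above 0 (tolerance 1e-05 reads). Of 10858 rows with 1 accession, 81.1% had a length that differed from the annotation by at most 10%. Both figures are in part built in. A length had to make the reads of a row whole, and of those that did, the closest to any annotated length was taken. Reads summed over genes (4092604 to 4581059) were above the library reads, so rows may share reads. Where the reads of a gene have a common divisor (Lss, Fdft1, Sc5d, Stard4, Fads2) they may be a fraction of those found. Reads and the floor of 3 reads cover counting error only; reads served for depth and for a voom fit.

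The members and lists were chosen with earlier results of these data known. Named genes were all members, called genes of the other pathway list (up to 8) and the gate genes. The 2 most abundant markers of other cell types were named too, and those that bear on a result are printed. The LXR targets, T cell genes, Xcr1, C1qa, Clec4f, Cd68, Cd163 and Abca1 were named after their values were seen. Of the genes the rule took, 1 is not reported here. Alternatives were another pseudocount (0.1, 5), filter (none, RPKM of 5), scaling (quantile, median centring), prior, voom on reads, a replicate block, each library left out and, added after seeing the data, a correction for gene length.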

Additional observations from a re-analysis of the deposited data

How the results depend on the processing

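In the 10 settings that kept all libraries, member fold changes held their sign in all 341 comparisons; 328 kept their side of the threshold, 7 lost a call and 6 gained one. Members called higher numbered 2 in place of 3 with no filter, with an RPKM minimum of 5 and with quantile scaling. Fads1 was the one missing each time, and at the RPKM minimum of 5 it was not tested. With the gene length correction they numbered 4. Members called lower numbered 1 in place of 2 with pseudocount 0.1, with no filter, with median centring, with a prior without trend and with the gene length correction, Scd2 being the one lost each time. Other pathway genes called higher numbered 1 in place of 2 with pseudocount 5, an RPKM minimum of 5, median centring and the gene length correction, 0 with no filter and with quantile scaling. The gene length correction called 591 genes lower in place of 388. The cause of each was not tested. With 1 library left out, genes called higher ranged from 245 to 777 (478 with all), genes lower from 198 to 763, members higher from 1 to 8, members lower from 0 to 3, other pathway genes higher from 0 to 2 and lower from 3 to 5, and the median member log2 fold change from -0.029 to 0.359. Each count was lowest, or tied for it, without CD49b+ replicate 1 and highest, or tied for it, without TRAIL+ replicate 1.

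The sign turned without 1 library in 11 members, with log2 fold changes of -0.021 to 0.62 for Acat2, -0.076 to 0.22 for Dhcr7, -0.60 to 0.25 for Ebp, -0.082 to 0.32 for Elovl5, -0.78 to 0.23 for Fasn, -0.17 to 0.60 for Insig1, -0.26 to 0.36 for Insig2, -0.19 to 0.19 for Npc2, -0.050 to 0.27 for Nsdhl, -0.16 to 0.37 for Sc5d and -0.69 to 0.21 for Scd1.

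Same-numbered replicates deviated together across genes (correlation 0.563), but the labels tie them only by a number. With the replicate block 1049 genes were called higher and 833 lower, 8 members higher (Sqle, Cyp51, Tm7sf2, Sc4mol and Stard4 added) and 2 lower, and 5 other pathway genes higher. Where a subset is left with 1 library, that library is assumed to vary like the others. Members with the fewest reads over the 4 libraries were Fads2 (1 to 4), Nr1h3 (17), Tm7sf2 (54), Idi1 (62) and Fdps (75).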
